A study of Homo sapiens with 87 samples.

Results

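The comparison set a single HAP1 clone with a knockout of ACTB, the gene for beta-actin, against wild-type HAP1 cells. HAP1 is a human cell line of chronic myeloid leukaemia origin that carries a near-haploid genome. The libraries were picked by their labels: the 3 libraries of the ACTB knockout (clone 2471-10) and the 3 libraries of wild type (C631), 6 of the 87 samples of the series. Of the table that holds them 75 libraries in 25 groups of 3 were used, and the other 23 groups are knockout clones of other genes of the BAF chromatin-remodelling complex, with 2 clones each for ARID1A and SMARCA4. The table has 3 more wild-type columns whose names give no clone; they could not be matched to a labelled sample and were not used, so every statement on other libraries is about the 75. Per the labels, all groups were HAP1 cells grown in serum-supplemented IMDM medium with no further treatment, and stranded libraries of poly-A RNA were sequenced as single reads of 50 bases. The knockout is represented by 1 clone, so the loss of ACTB and other features of that clone cannot be told apart. Nothing in the labels ties the 3 libraries of a group to different cultures, so that the p-values reflect the spread among libraries, which may be technical.

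Beta-actin and gamma-actin, the products of ACTB and ACTG1, are the actins of non-muscle cells, while ACTA2, ACTG2, ACTA1 and ACTC1 encode the actins of smooth, skeletal and cardiac muscle. Actin monomers hold the coactivators MKL1 and MKL2 (also called MRTF-A and MRTF-B) in the cytoplasm, and when free monomer is low these enter the nucleus and act with SRF, a transcription factor that binds the CArG box in the promoters of actin, tropomyosin, calponin and focal adhesion genes. Beta-actin is also a subunit of BAF and of the related INO80, SRCAP and TIP60 complexes, where it pairs with the actin-related protein ACTL6A.

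The 6 libraries held between 17847158 and 22243858 estimated counts, within the range of the whole table. The lowest value in the table is 1, and between 42.6% and 45.7% of the listed genes stood at it in these libraries. Whether a value of 1 stands for 1 read or for none is not stated in the sources; if for none, the ratios given for genes with 1 to 3 counts per library would be larger. Levels are given as CPM, counts scaled to a common library total, with the standard deviation (SD, n = 3). Changes are log2 fold changes of the knockout over wild type with their standard error (SE) and the adjusted p of edgeR's quasi-likelihood test over 16159 genes. A gene was called, and is said to have risen or fallen, when it changed at least by 1 on the log2 scale with an adjusted p of 0.05 or less. By that rule 513 genes (3.17%) rose and 311 (1.92%) fell, and the median over all genes tested was -0.01. Of the called genes, 503 of those that rose and 301 of those that fell had separate ranges in the 2 groups, as had 29.8% of all genes tested. The same fit was used to set the ACTB clone against the mean of the other 23 clones, taken over their log2 levels. The wild-type libraries take no part in this contrast: 553 genes (3.42%) were called higher and 330 (2.04%) lower, 5.46% in all. Where the clones differ widely, a mean of log2 levels can lie far below their mean CPM. In the same direction against both references stood 387 of the risen and 220 of the fallen genes, 3.76% of the genes tested. By number of calls against wild type the clone ranked 10 among the 24 clones. The median log2 fold change per chromosome lay between -0.04 and 0.05 over 23 chromosomes.

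ACTB itself fell. Its level was 102, 119 and 126 CPM in the knockout libraries and 3723, 3660 and 4003 CPM in wild type, which is -5.04 on the log2 scale (SE 0.0965, adjusted p = 1.57e-44). All other clones had means between 2689 and 5519 CPM, so the 3 knockout libraries were the lowest of the 75. The residual transcript was 115.7 ± 12.0 CPM. How reads shared between the near-identical actin genes were counted is not given in the sources used here, so the levels of all actins, this residue included, are uncertain to that extent.

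The other actins that could be tested all rose. ACTG2, the gamma actin of enteric smooth muscle, stood at 1254, 1173 and 1274 CPM in the knockout against 54.1, 54.7 and 60.4 CPM in wild type (log2 fold change 4.45, SE 0.174, adjusted p = 3.59e-29). ACTA2, the alpha actin of vascular smooth muscle, stood at 329, 298 and 373 CPM against 4.63, 4.15 and 5.07 CPM (6.17, SE 0.399, adjusted p = 3.69e-19). ACTG1 stood at 2773, 2801 and 3040 CPM against 1355, 1544 and 1191 CPM (1.07, SE 0.167, adjusted p = 1.24e-06). In all 3 genes the groups were separated by a clear gap, widest for ACTA2. The ACTG1 change lay close to the fold threshold: without WT replicate 3 it was 0.99 and was not called. The skeletal and cardiac actins ACTA1 and ACTC1 were not tested, since they held 1 or 2 counts in each of the 6 libraries.

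Because CPM does not allow for transcript length, actin genes were compared with each other in the authors' quantile-normalized TPM. In wild type ACTB had 3719 ± 174 TPM and ACTG1 1354 ± 188 TPM, 72.4% and 26.4% of the summed actin TPM. ACTG2 added 56.3 ± 3.91 TPM, 1.10% of the sum, and ACTA2 4.74 ± 0.369 TPM, or 0.0923%. In the ACTB knockout the order was different. ACTG1 led with 2806 ± 223 TPM (63.1% of the sum), ACTG2 followed with 1206 ± 41.9 TPM (27.1%) and ACTA2 with 322 ± 25.2 TPM (7.24%). ACTB came last among these with 114 ± 11.9 TPM (2.56%). The sum of the 6 actins was 4481, 4156 and 4707 TPM in the knockout libraries and 5216, 5126 and 5061 TPM in wild type. The knockout mean was 86.6% of the wild-type mean, and the groups did not overlap. An exact two-sided permutation test of the sum gave p = 0.1, the smallest p that 3 against 3 libraries allow.

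**Figure D1:**
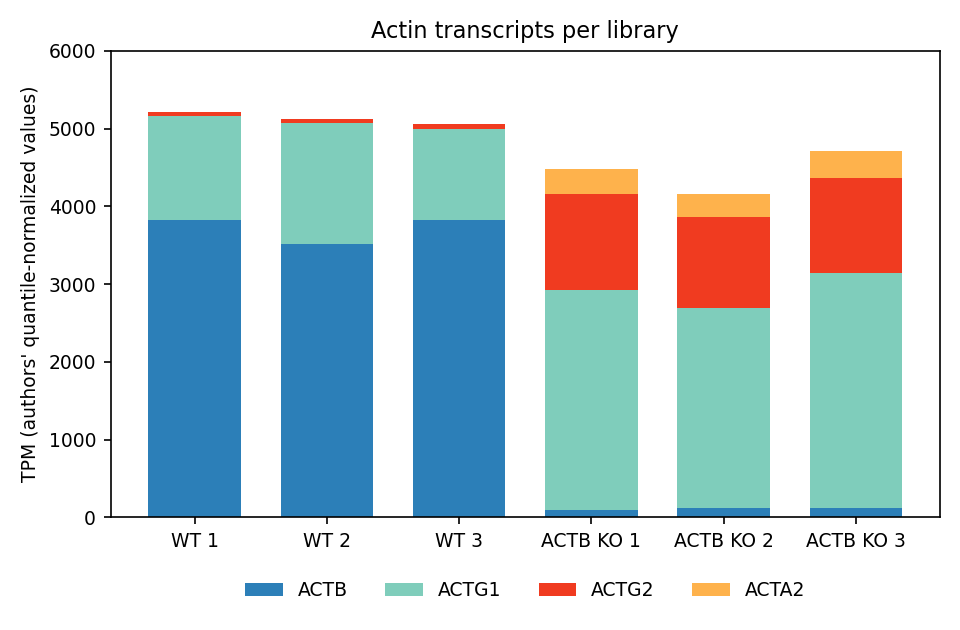
Stacked bars show the TPM of ACTB, ACTG1, ACTG2 and ACTA2 (authors' quantile-normalized values, linear axis from 0) in each wild-type (WT) and ACTB knockout (KO) library. ACTB fills most of the wild-type bars, while ACTG1 and ACTG2 fill most of the knockout bars, whose sums lie between 4156 and 4707 TPM against 5061 to 5216 TPM.

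Among all groups the ACTB clone had the highest mean of each of these 3 actins. For ACTG2 the next was the BRD9 clone with 83.5 CPM, and the lowest was SMARCA4 clone 2878-4 with 0.213 CPM. ACTG2 was called down against wild type in 13 of the other clones and up in none. Against the mean of the other 23 clones it was higher by 6.61 on the log2 scale (SE 0.0638, adjusted p = 9.49e-61). For ACTA2 the next group was SMARCA4 clone 2878-6 with 12.4 CPM, and the difference from the 23 clones was 6.23 (SE 0.131, adjusted p = 3.56e-43). For ACTG1 both SMARCA4 clones came next with 2258 and 2231 CPM. One of the libraries of clone 2878-6 reached 2779 CPM, above the lowest ACTB knockout library, so ACTG1 overlapped with that group while its difference from the 23 clones was 1.08 (SE 0.106, adjusted p = 1.33e-12).

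**Figure D2:**
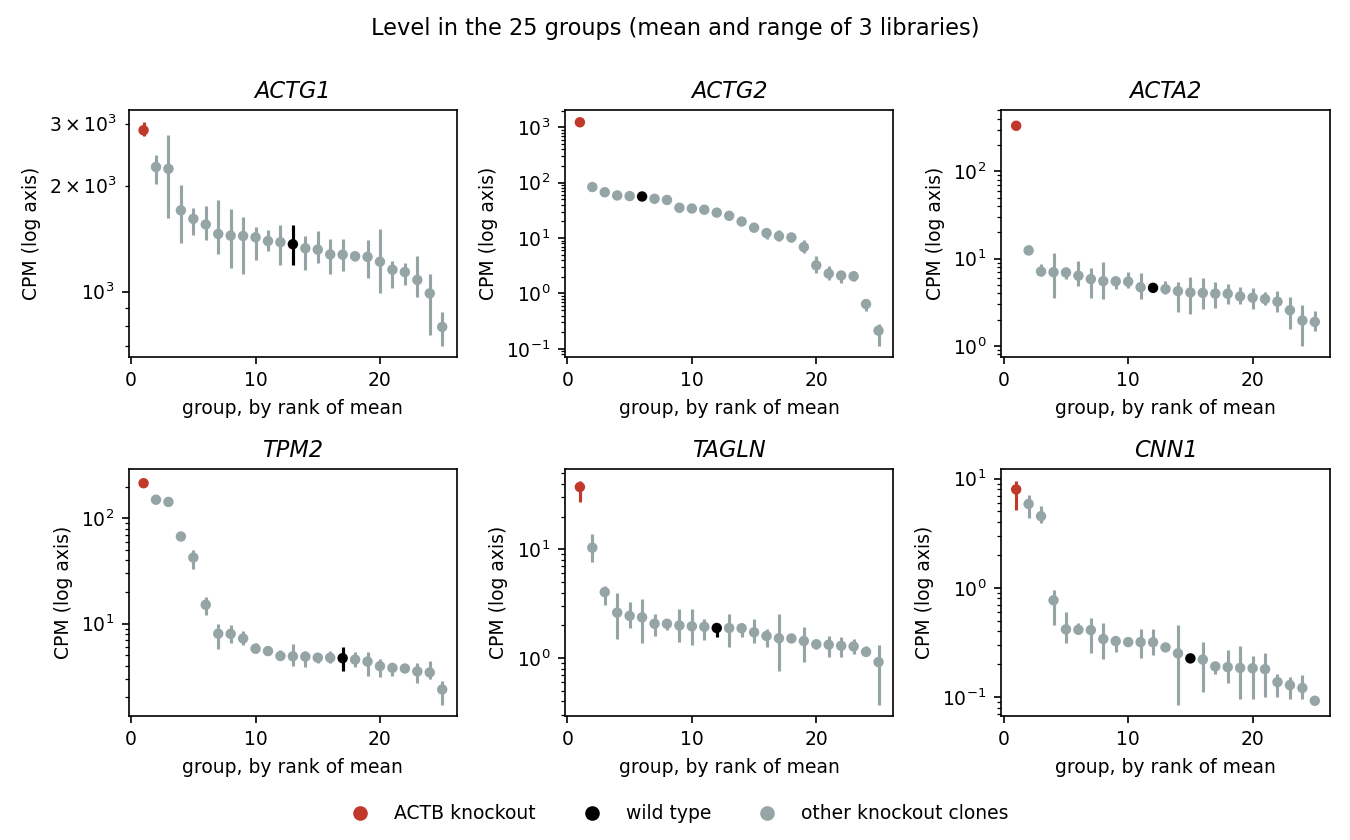
Each panel shows the CPM (log axis) of a gene in the 25 groups, ordered by mean, with the mean as a point and the range of the 3 libraries as a line. The ACTB knockout ranks first in all 6 panels, and both SMARCA4 clones come next for ACTG1, ACTA2, TPM2, TAGLN and CNN1.

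The genes that coat, cross-link or move actin filaments rose often. Of 38 listed tropomyosin, calponin, myosin and cross-linker genes 37 were tested, of which 11 rose and none fell, 29.7% against 3.17% of all genes. Their median log2 fold change was 0.57. Against the 23 clones 12 were called higher, and 15 of the 37 had all ACTB knockout libraries outside the range of the 72 other libraries, against 1.71% of all genes tested. TPM2, the beta-tropomyosin of muscle, stood at 217, 202 and 228 CPM in the knockout and at 3.56, 6.04 and 4.52 CPM in wild type (5.50, SE 0.212, adjusted p = 1.85e-29). TAGLN, the smooth muscle protein transgelin, stood at 42.3, 27.0 and 42.8 CPM against 2.03, 1.58 and 2.06 CPM (4.30, SE 0.339, adjusted p = 7.47e-16). CNN1, smooth muscle calponin, was lower in abundance, with 9.18, 5.11 and 9.58 CPM against 0.226, 0.225 and 0.228 CPM (5.10, SE 0.319, adjusted p = 8.26e-20). For TPM2 and TAGLN every knockout library exceeded every other library of the table. CNN1 overlapped with the SMARCA4 clones, whose means were 5.86 and 4.53 CPM, and TPM2 also reached 150 and 143 CPM there.

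Abundant filament genes rose by smaller factors. FLNA, the cross-linker filamin A, went from 800.3 ± 53.5 to 2364 ± 205 CPM (1.56, SE 0.173). TPM1 went from 293 ± 15.7 to 933 ± 88.0 CPM, CALD1, the myosin regulator caldesmon, from 246 ± 8.63 to 841 ± 25.7 CPM, and TPM4, a non-muscle tropomyosin, from 503 to 1223 CPM (1.28, SE 0.0440, adjusted p = 7.39e-32). ACTN1 (alpha-actinin 1), LIMA1 and NEXN rose by 1.14 to 1.52. LCP1, a plastin of blood cells, also passed with 0.751 CPM against 0.291 CPM, but not without ACTB replicate 1 (1.08). MYL6, the essential light chain of non-muscle myosin, and MYH9, its heavy chain, lay just under the fold threshold at 0.9998 and 0.98, with adjusted p = 2.89e-11 and 5.86e-17. TPM3 (0.28) and SMTN (-0.00) were not called, and MYH11, the smooth muscle myosin heavy chain, had 0.439 CPM against 0.607 CPM (-0.45, adjusted p = 0.489).

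Of the genes that bind monomers or turn filaments over, 2 of the 32 tested rose (6.25%, against 3.17% of all genes) and none fell. Their median was 0.25. CORO2B, a coronin, rose by 1.504 (SE 0.279). GSN, the severing protein gelsolin, rose from 3.12 ± 1.07 to 8.20 ± 2.61 CPM (1.40, SE 0.391, adjusted p = 0.00773), and was not called without ACTB replicate 3 (1.11) or without WT replicate 3 (1.18). Most differences here were smaller than the fold threshold: 14 of the 32 passed the adjusted p at any size, all of them higher, against 15.1% of all genes in either direction. Among these were WDR1 (0.79), the depolymerizing factor DSTN (0.70), CAP1 (0.55), cofilin (CFL1, 0.35) and profilin (PFN1, 0.31). In the list of nucleators, which start new filaments, the median was 0.05. Of the 34 tested 1 rose and 1 fell (2.94% each), near the 3.17% and 1.92% of all genes. The first was ARPC5, a subunit of the Arp2/3 complex, with 357, 377 and 359 CPM against 175, 175 and 177 CPM (1.05, SE 0.0619, adjusted p = 5.99e-21), higher than in all 72 other libraries. The second was HCLS1, the cortactin homologue of blood cells, which is described with the blood lineage genes.

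Focal adhesions anchor filament bundles at the membrane. In their list 10 of 35 tested genes rose (28.6%, against 3.17% of all genes) and none fell, with a median of 0.38. Outside all 72 other libraries lay 9 of the 35, against 1.71% of all genes tested. CSRP1, a LIM protein of smooth muscle, stood at 296, 269 and 314 CPM against 43.0, 46.1 and 48.0 CPM (2.68, SE 0.0900, adjusted p = 3.18e-32). TES (testin) rose from 13.3 ± 0.789 to 57.6 ± 2.90 CPM, LPP from 16.9 ± 5.58 to 58.7 ± 12.6 CPM and PDLIM7 from 30.8 ± 3.13 to 82.8 ± 13.2 CPM. VCL (vinculin) rose from 391 to 877 CPM (1.16, SE 0.0531, adjusted p = 5.33e-26). LIMS2, TGFB1I1, FHL2, FERMT2 (kindlin-2) and ZYX (zyxin) made up the rest, with log2 fold changes from 1.09 to 3.05. Talin (TLN1) was at 0.46, paxillin (PXN) at 0.06 and the kinase PTK2 at -0.10, all uncalled.

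**Figure D3:**
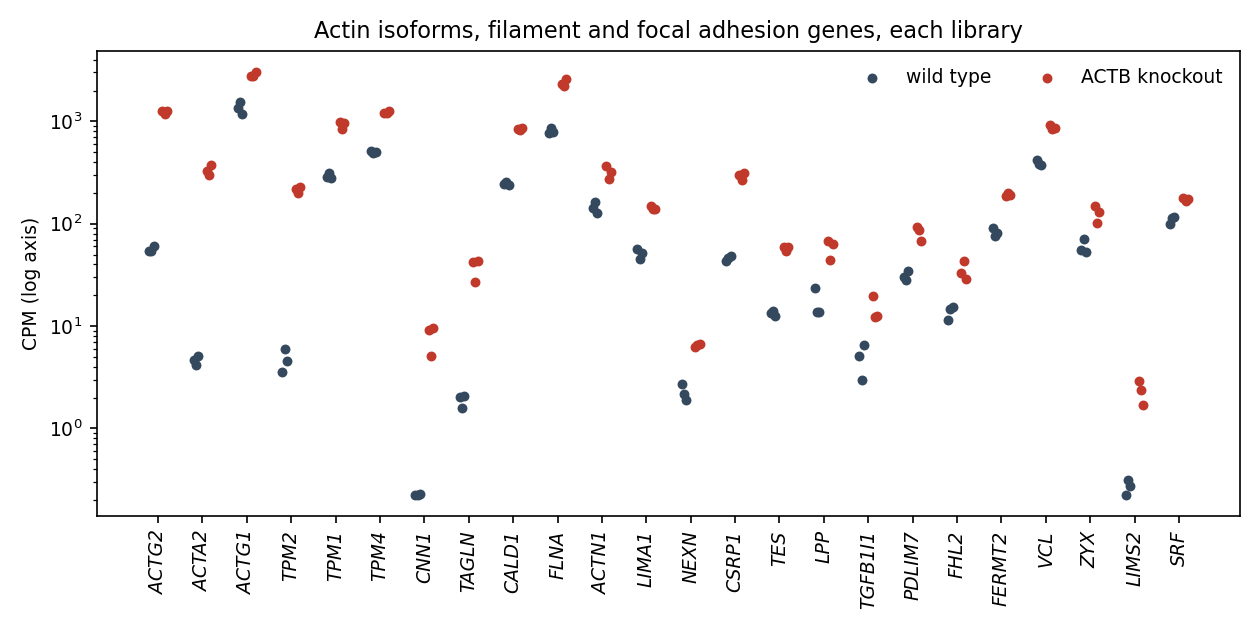
Each point is the CPM (log axis) of a gene in 1 library of wild type or of the ACTB knockout. For every gene shown the 3 knockout libraries lie above the 3 wild-type libraries, with the widest gaps for ACTA2, TPM2, CNN1 and ACTG2; SRF is shown for contrast and did not reach the fold threshold.

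SRF and its cofactors were not called. Of the 8 tested, SRF had the highest change, from 109 to 173 CPM (0.66, SE 0.0753, adjusted p = 3.09e-10), below the fold threshold but outside all 72 other libraries. MKL1 was at -0.15 and MKL2 at -0.06, and MYOCD, the muscle cofactor myocardin, stood at the lowest value of the table in all 6 libraries.

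The CArG box was then sought in promoters. Promoter sequences came from RefSeq (GRCh38.p14), which gave 250 bases before to 50 bases after a gene start for 11463 of the genes tested, in some cases for several starts. The box reads the same on both strands, so that a match covers both, and it was required in full. It was present in 183 of these genes (1.60%) and in 1.29% of all 35116 promoters of that table. Of the risen genes with a promoter 20 of 355 held a box (5.63%), and of the fallen genes 4 of 213 (1.88%). In the 5 actin, filament, nucleator, turnover and focal adhesion lists together, 9 of 26 risen genes held a box (34.6%) and 5 of 99 uncalled genes (5.05%). The risen genes had more promoters each, 2.42 against 1.83, and the part of this in the shares was not tested. A match is a description of these letters and not evidence of binding. ACTB, TAGLN and MYL9 had no promoter entry. The promoters of ACTA2, TPM2, CNN1, CSRP1, TPM1, CALD1 and VCL, all of which rose, were searched and held no full box.

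The stretch upstream of ACTG2 (chr2:73892878-73892964, GRCh38.p14, plus strand, from 130 to 44 bases before the start) is shown because it held 2 boxes, beginning 110 and 73 bases before the start; capitals mark the boxes.
ACTG2: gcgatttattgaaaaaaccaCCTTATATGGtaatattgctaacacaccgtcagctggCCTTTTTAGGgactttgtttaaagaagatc
The 6 stretches that follow are from other risen genes, in the orientation of the gene. They are ACTG1 (chr17:81512859-81512918, minus strand, box 94 bases before the start), FLNA (chrX:154374694-154374753, minus, 94), TPM4 (chr19:16067340-16067399, plus, 173), FHL2 (chr2:105399076-105399135, minus, 59), LPP (chr3:188212504-188212563, plus, 183) and TGFB1I1 (chr16:31473129-31473188, plus, 51).
ACTG1: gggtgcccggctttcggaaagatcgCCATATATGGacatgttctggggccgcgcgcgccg
FLNA: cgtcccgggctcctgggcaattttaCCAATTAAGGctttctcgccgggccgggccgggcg
TPM4: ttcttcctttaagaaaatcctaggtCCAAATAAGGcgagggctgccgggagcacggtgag
FHL2: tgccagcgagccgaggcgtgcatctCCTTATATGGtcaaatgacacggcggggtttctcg
LPP: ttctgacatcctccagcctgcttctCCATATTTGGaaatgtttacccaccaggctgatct
TGFB1I1: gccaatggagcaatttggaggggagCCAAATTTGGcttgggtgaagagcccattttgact
For contrast, CNN2 (chr19:1026494-1026553, plus, 89) and SMTN (chr22:31084927-31084986, plus, 44) held a full box but were not called, at 0.41 and -0.00.
CNN2: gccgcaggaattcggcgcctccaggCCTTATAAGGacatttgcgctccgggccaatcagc
SMTN: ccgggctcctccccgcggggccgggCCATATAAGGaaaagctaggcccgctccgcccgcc

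The list of immediate early genes was another with many calls. Serum induces such genes through SRF and the MAP kinase pathway, and the list also holds feedback genes of that pathway. Of 31 tested 9 rose (29.0%, against 3.17% of all genes), none fell, and the median was 0.45. FOSL2, an AP-1 subunit, stood at 16.4, 13.6 and 17.4 CPM against 2.71, 4.69 and 3.61 CPM (2.10, SE 0.221, adjusted p = 2.61e-11). SPRY4, DUSP4, DUSP5 and DUSP6, which restrain MAP kinase signalling, rose by 2.69, 1.29, 1.67 and 1.51, and the transcription factors ETV4 and ETV5 by 1.67 and 1.39. EGR3 and JUN were the others. FOS, FOSB, EGR1, EGR2, IER2 and JUNB, also on the list, were not among the 9. The 9 were low in abundance, the highest being FOSL2, and the summed level of the list overlapped between groups, at 1321 to 1410 CPM in the knockout and 1222 to 1442 CPM in wild type. Only DUSP5 among the 9 lay outside all 72 other libraries. Targets of the coactivator YAP rose in 3 of 20 cases (15%, against 3.17% of all genes), with a median of 0.40. MYOF (myoferlin) went from 4.08 ± 0.885 to 72.4 ± 9.63 CPM (4.15, SE 0.298, adjusted p = 2.37e-17), but both SMARCA4 clones were higher, at 195 and 184 CPM. ANKRD1 rose by 1.99 and the receptor AXL by 1.51. The best known YAP targets CTGF and CYR61 were not called, at 0.28 and 0.87.

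Apart from ACTB itself, which was left out of these lists, the subunits of BAF and of the other actin-containing remodellers showed no calls. None of 29 tested BAF genes and none of 26 INO80, SRCAP and TIP60 genes passed both thresholds, against 5.1% of all genes in either direction, and their medians were -0.16 and -0.13. Of the 29 BAF genes 6 passed the adjusted p at a smaller fold, all lower, against 15.1% of all genes at any fold in either direction. The most changed were BCL11B (-0.81), BCL11A (-0.62) and ARID1B (-0.57). Of the 26 genes of the other remodellers 1 passed the adjusted p. The summed BAF level was 2096 to 2244 CPM in the knockout and 2281 to 2403 CPM in wild type.

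**Figure D4:**
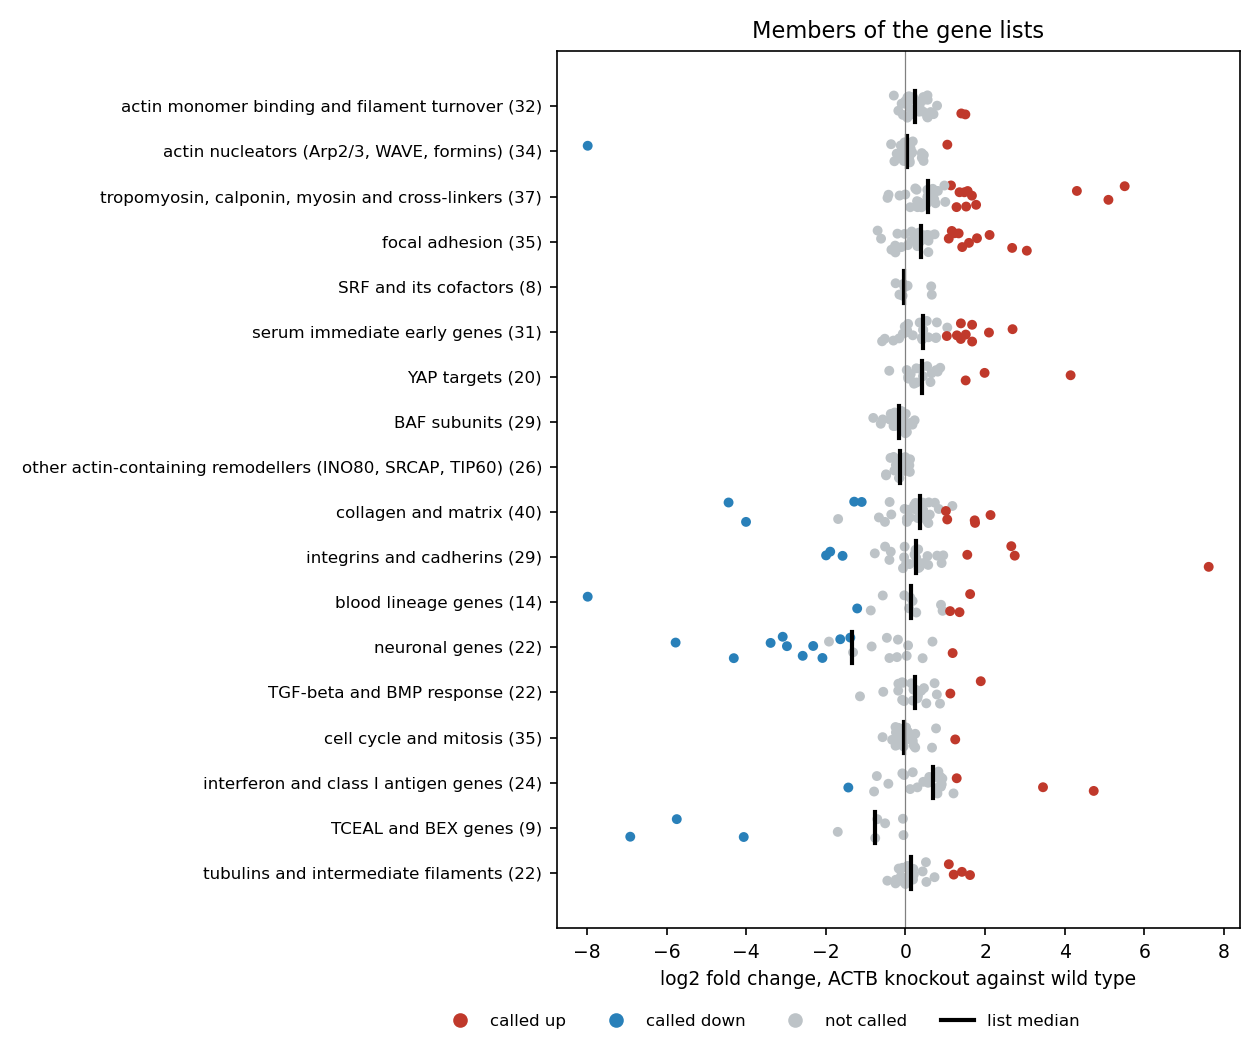
Each point is the log2 fold change (ACTB knockout against wild type) of a tested member of a gene list, with the number tested in brackets; red and blue points were called up and down, grey points were not called, and the black bar is the list median. The filament, focal adhesion and immediate early lists have called members on the right only, the neuronal list has most on the left, and the BAF and remodeller lists have none.

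Genes of the matrix and of cell adhesion moved in both directions. Of 40 tested matrix genes 5 rose (12.5%, against 3.17% of all genes) and 4 fell (10%, against 1.92%). SPARC, a secreted collagen-binding protein, rose from 136 ± 8.03 to 281 ± 13.9 CPM (1.05), THBS1 (thrombospondin 1) from 15.1 ± 3.00 to 50.5 ± 10.5 CPM (1.74) and VCAN (versican) by 1.75. COL12A1 rose by 2.14 from a wild-type total of 9 counts, a 4.52-fold ratio of counts with an exact 95% interval of 2.15 to 10.6 for counting error only. LOXL2 (1.02) was not called without ACTB replicate 3 (0.99), WT replicate 1 (0.98) or WT replicate 2 (0.95). COL11A1 fell from 20.4 ± 1.81 to 1.26 ± 0.254 CPM (-4.004, SE 0.111), but stood at 0.10 against the mean of the 23 clones. It was called down in 16 of them and up in 7. The 0.10 refers to the mean of log2 levels, since the mean CPM of the 23 clones was 56.9. MFAP2, a microfibril protein, fell by -4.44 with 1 or 2 counts per knockout library.

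CDH13, a cadherin attached by a lipid anchor, had one of the largest increases of all genes, to 34.3, 32.9 and 31.0 CPM from 0.0565, 0.225 and 0.183 CPM (7.61, SE 0.327, adjusted p = 2.97e-27). No other library of the table exceeded 0.804 CPM. In the list of integrins and cadherins 4 of 29 rose (13.8%, against 3.17% of all genes) and 3 fell (10.3%, against 1.92%). CDH3 (P-cadherin) rose by 2.74 and ITGB8 by 2.66. ITGB3 (1.55) was not called without ACTB replicate 3 (1.24) or WT replicate 3 (1.25). CD44, PCDH7 and PCDH17 fell by 1.58, 1.89 and 1.99 on the log2 scale.

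Markers of smooth muscle were checked because ACTA2 and CNN1 are among them. These 2 of 8 tested markers rose (25%, against 3.17% of all genes). The summed level of the list was 331 to 413 CPM in the knockout against 30.5 to 39.3 CPM in wild type, most of it ACTA2. The defining marker MYH11 was not called, and LMOD1 and SYNPO2 were at 0.55 and 0.72 with adjusted p = 0.116 and 0.128. DES, CASQ2 and PLN were too low to test. Of the fibroblast markers 1 of 7 rose (14.3%, against 3.17% of all genes) and 2 fell (28.6%, against 1.92%). THY1, a surface glycoprotein, stood at 95.6, 89.7 and 98.7 CPM against 0.791, 0.811 and 0.457 CPM (7.10, SE 0.214, adjusted p = 1.29e-34), while COL1A1 (0.03) and PDGFRA (-0.05) were not called. PRRX1 fell against wild type (-1.51) and stood higher than the mean of the 23 clones (2.52), the only gene called in opposite directions; it was called down against wild type in 21 of the other clones. Markers of A549, the lung carcinoma line that the labels' culture protocol also names, stayed low. Their summed level was 3.91 to 4.75 CPM against 4.01 to 6.48 CPM. Of the 9 tested 1 was called down (11.1%, against 1.92% of all genes) and none up. In bulk RNA fewer cells of a type and less RNA per cell cannot be told apart.

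Markers of HAP1 itself fell in 4 of 8 cases (50%, against 1.92% of all genes), and their summed level was 146 to 153 CPM in the knockout against 267 to 282 CPM in wild type. HCLS1 stood at 0.144, 0.201 and 0.108 CPM against 44.1, 39.4 and 36.3 CPM (-7.98, SE 0.303, adjusted p = 1.05e-29). It was called down in 15 other clones as well and was the lowest in the PBRM1 clone. LIN28A, an RNA-binding protein of stem cells, fell from 36.1 ± 5.50 to 4.74 ± 1.58 CPM and PRAME from 3.25 to 0.472 CPM. TAL1, a transcription factor of blood progenitors, fell from 16.3 to 7.00 CPM. Among the other clones LIN28A was called up in 9 and down in 9, PRAME up in 11 and down in 5, and TAL1 up in 9 and down in 13. Against the mean of the 23 clones 3 of the 8 were called lower, TAL1 was at -0.01, and the list median was -0.35. These refer to the mean of log2 levels, and the mean CPM of TAL1 over the 23 clones was 23.4. LIN28B (-0.47), GATA2 (-0.03) and KIT (-0.87) were not called. In the wider list of blood lineage genes 3 of 14 rose (21.4%, against 3.17% of all genes), among them RUNX1 (1.12). In the same list 2 fell (14.3%, against 1.92%).

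Of the neuronal genes 10 of 22 tested fell (45.5%, against 1.92% of all genes), 1 rose, and the median was -1.35. The summed level of the list overlapped between groups, at 282 to 320 CPM in the knockout and 304 to 322 CPM in wild type. Against the mean of the 23 clones 9 were called lower (2.04% of all genes), 7 of them in both contrasts. KCNK2, a potassium channel, fell from 34.99 to 8.23 CPM (-2.08, SE 0.142) and CELF2, an RNA-binding protein, from 22.1 to 8.45 CPM. GRIA2, a glutamate receptor subunit, stood at 0.0962, 0.351 and 0.108 CPM against 4.46, 3.74 and 3.24 CPM (-4.31, SE 0.420). GABRA5, a GABA receptor subunit, held 6 counts in all 3 knockout libraries and 358 in wild type, a 57.2-fold lower ratio with an exact 95% interval of 26.0 to 157 for counting error only. CNTN1 likewise rested on 1 or 2 counts per knockout library. These genes varied widely among the clones: GABRA5 was called up in 9 and down in 12 of the others. CNTNAP2 was at 0.68 against wild type and 4.55 against the 23 clones, and TUBB3 was at 0.43.

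TCEAL and BEX genes lie together on the X chromosome. Of 9 tested 3 fell (33.3%, against 1.92% of all genes) and none rose, with a median of -0.76. WBP5 (TCEAL9) stood at 0.144, 0.201 and 0.0542 CPM against 18.0, 13.7 and 19.3 CPM (-6.91, SE 0.237). TCEAL2 fell by -4.06 and TCEAL8 by -5.74. Among the other 23 clones WBP5 was called down in 16 and up in 6, and TCEAL2 down in 7 and up in 9. Against the mean of these clones WBP5 and TCEAL2 were called lower (-3.94 and -4.20). TCEAL8 was called down in 22 of the other clones and did not pass the test against their mean (-1.03, adjusted p = 0.261).

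In the list of interferon and class I antigen genes 3 of 24 rose (12.5%, against 3.17% of all genes) and 1 fell (4.17%, against 1.92%). The median was 0.70. At any size 12 of the 24 passed the adjusted p upward, against 15.1% of all genes in either direction. NLRC5, the transactivator of class I genes, stood at 23.7, 27.1 and 23.01 CPM against 1.98, 2.03 and 2.69 CPM (3.45, SE 0.278, adjusted p = 1.80e-15). PSMB8, a subunit of the immunoproteasome, stood at 14.7, 8.07 and 8.77 CPM against 0.508, 0.406 and 0.274 CPM (4.73, SE 0.286, adjusted p = 1.84e-20). HLA-B rose from 122 ± 8.44 to 297 ± 27.6 CPM (1.29). All 3 were higher than in the 72 other libraries, HLA-B by a small margin. B2M (0.91), HLA-C (0.89), HLA-E (0.84), TAP1 (0.80) and TAP2 (0.57) passed the adjusted p below the fold threshold. HLA genes resemble each other, so how their reads were divided is uncertain. The interferon-induced genes MX1 (-0.08) and ISG15 (-0.43) were not called, and IFITM1 fell by -1.43.

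None of the genes in the lists that follow fell. Of 22 tubulin and intermediate filament genes 4 rose (18.2%, against 3.17% of all genes). Among them were NES (nestin), from 259 to 797 CPM (1.62, SE 0.101), and SYNM (synemin), from 13.8 to 36.8 CPM. TGFB2 (1.89) and BMP7 (1.13) rose among 22 TGF-beta and BMP genes (9.09%). In the list of 35 cell cycle genes only CCND1 rose (2.86%), from 7.01 ± 1.07 to 16.7 ± 4.05 CPM (1.25), and the median was -0.04.

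Beyond the lists, which held 98 of the 824 called genes, the largest increases were in genes nearly silent in wild type. A2M, the protease inhibitor alpha-2-macroglobulin, led with 77.0, 75.05 and 75.8 CPM against 0.508, 0.270 and 0.0913 CPM (8.06, SE 0.375, adjusted p = 1.36e-25), and the next library of the table had 1.60 CPM. VCAM1, an endothelial adhesion molecule, stood at 18.9, 26.6 and 17.1 CPM against 0.226, 0.406 and 0.228 CPM (6.14, SE 0.310). IL7R, the interleukin 7 receptor, rose by 5.61 and KIAA1324L by 4.98. MYH15, a myosin heavy chain gene, rose from 0.947 to 25.5 CPM (4.76) and TMEM132E from 1.89 to 44.4 CPM (4.54). MYH15 and TMEM132E, like A2M and VCAM1, were higher than in every other library of the table, and KIAA1324L was not.

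Several losses set this clone apart from the others. CREB1, a transcription factor activated by cyclic AMP, stood at 1.06, 1.504 and 1.19 CPM against 38.7, 39.2 and 37.3 CPM (-4.93, SE 0.211, adjusted p = 2.54e-27), and no other library was below 21.1 CPM. UBQLN1, which carries ubiquitinated proteins to the proteasome, stood at 26.3, 26.4 and 23.9 CPM against 276, 234 and 230 CPM (-3.27, SE 0.0776, adjusted p = 8.69e-40), with 196 CPM as the lowest of the others. AGAP1, a GTPase-activating protein of membrane traffic, stood at 5.67, 5.67 and 6.88 CPM against 46.5, 41.1 and 41.3 CPM (-2.82, SE 0.119). None of these 3 was called down in another clone, and each differed from the mean of the 23 clones (-4.72, -3.26 and -2.88, the highest adjusted p being 3.25e-29 for CREB1). HPGD, which degrades prostaglandins, SEZ6L2, PCDHB5, STAT6, TMEM59L and BRSK1 also fell below all 72 other libraries, by log2 fold changes of -3.67 to -1.75. In all, 121 risen and 31 fallen genes of the 16159 tested were called against both references and lay outside all other libraries. Called or not, 277 genes (1.71%) lay outside them. Called against wild type in the same direction in no other clone were 98 of the 513 risen and 50 of the 311 fallen genes. The same counts were not made for the other clones.

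**Figure D5:**
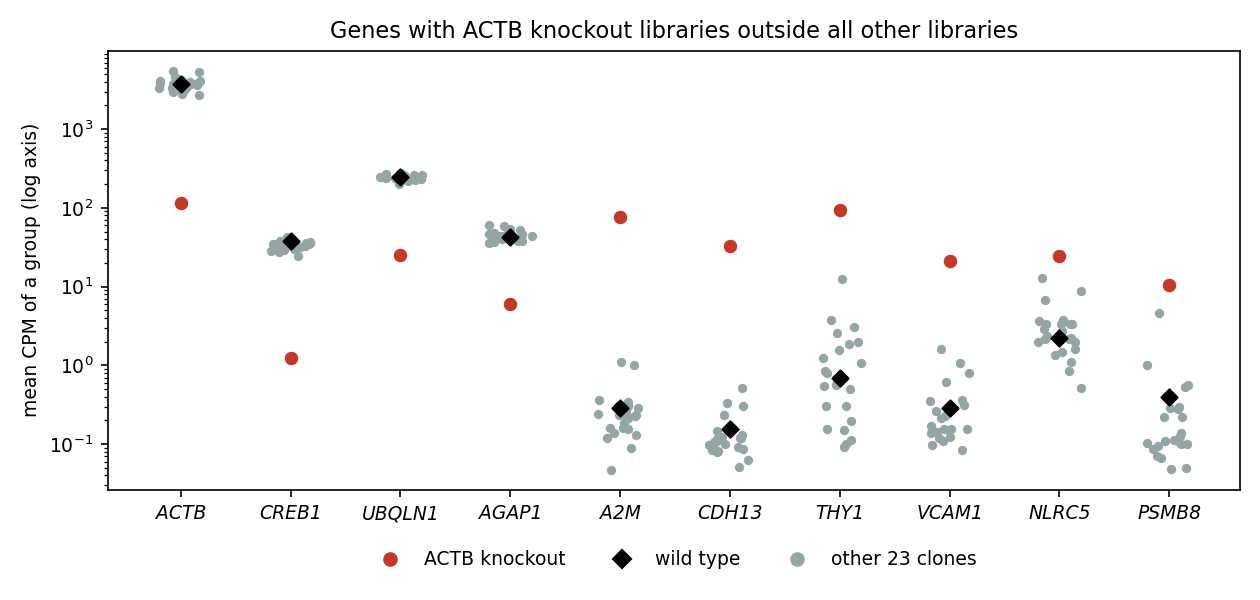
The mean CPM (log axis) of 10 genes is shown for the ACTB knockout, wild type and each of the other 23 clones. CREB1, UBQLN1 and AGAP1 are lowest in the ACTB knockout, and A2M, CDH13, THY1, VCAM1, NLRC5 and PSMB8 are highest there.

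Some of the other large falls against wild type were also called in most clones. PXDN (peroxidasin) stood at the lowest value of the table in all 3 knockout libraries and at 3.62, 4.24 and 7.35 CPM in wild type, at least 33.3-fold lower with 3 counts per library as the floor. It was called down in 22 other clones and did not pass the test against their mean (-1.22, adjusted p = 0.220). FASTKD2, a mitochondrial RNA-binding protein, fell by -5.85 against wild type and was called down in 18 other clones, with -0.94 against their mean. In total 7 of the fallen genes were called down in at least 20 other clones, and none of the risen genes was called up in as many. STAC (-5.84), NELL1 (-5.47) and MB21D1 (-4.72), the DNA sensor cGAS, were called lower against both references. They were called down in 10, 6 and 5 of the other clones and up in 4, 1 and 11. STAC rested on 5 counts over the 3 knockout libraries, a 60.8-fold lower ratio with an exact 95% interval of 25.8 to 188 for counting error only.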

How the data were processed

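Gene-level estimated counts were deposited, and 75 libraries of the knockout table were used. Per the submitters' processing notes, Trimmomatic, Bowtie, Picard and DESeq2 were used with the builds GRCh37 and hg19. The counting tool, the annotation, the strand setting and all versions were not given in the sources used here. The values were already whole and at least 1. The authors also deposited quantile-normalized log2 TPM, per the file headers and labels; the 6 columns of ACTB knockout and wild type were used for levels per length and for an alternative with limma 3.58.1. The double-loss table was not used. Of all columns 8 could not be matched to 1 labelled sample and were left out.

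In R 4.3.3, edgeR 4.0.16 was run on all 75 libraries with filterByExpr (16159 of 35438 genes), TMM scaling, 1 term per group and robust quasi-likelihood F-tests, adjusted by Benjamini-Hochberg. All groups share an estimate of the spread; 2 clones of ARID1A and of SMARCA4 count as separate clones in the mean of 23. The script was tested on simulated data. Replicates differed by more than sampling noise (lowest chi-square per degree of freedom 9.54). Genes named are ACTB, the actins, the first 10 per direction by fold with at least 5 CPM and no overlap, up to 6 called members per list and direction with uncalled members for contrast, and the first 10 per direction outside all 72 other libraries. The remaining called members of some lists (NEXN, TPM4 and ACTN1, for example) were named after their values were seen. The members and the 25 gene lists were chosen with earlier results of these data known. A few genes and 1 list are not reported here.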

Additional observations from a re-analysis of the deposited data

How the results depend on the processing

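All 4 counts of called genes stayed within 1.5 times their value under each alternative run. Against wild type the risen genes numbered 510 with upper-quartile scaling, 527 without the filter, 495 with DESeq2 1.42.0, 453 with the 6 libraries alone and 437 with limma on log2 TPM; the fallen genes numbered 317, 275, 286, 236 and 290. Leaving out each library in turn gave 488 to 514 and 281 to 300. Against the 23 clones the counts ranged from 541 to 617 (555 to 580 with a library left out) and from 290 to 335 (290 to 322). With the replicate block the counts were 527 and 325 against wild type and 554 and 334 against the 23 clones. Deviations from the group means correlated at 0.23, -0.08 and 0.28 between same-numbered libraries. Between unlike-numbered libraries they correlated at -0.40 to 0.24. These few values cannot settle whether the numbers pair the samples. No gene called against wild type was called in the opposite direction under any of these alternatives. Over the alternatives, 433 (limma on log2 TPM) to 512 (replicate block) of the 513 risen genes kept their call. Of the 311 fallen genes 229 (the 6 libraries alone) to 311 (upper-quartile scaling) did. Single genes were followed only among those picked by the naming rules, not among the members named later. Among those followed, the call was lost for AKR1C3, GSN, ITGB3, LAMA4, LCP1, LOXL2, PAK6, POSTN, RND3 and ACTG1 under at least 1 alternative. Those for AKR1C3 (-0.95 without WT replicate 3), LAMA4 (-0.84 without ACTB replicate 3) and POSTN (-1.11 without ACTB replicate 1), all under 2 CPM, and for ITGB3, LOXL2 and RND3 (0.99 without ACTB replicate 2) were each lost under at least 4 alternatives, and that for PAK6 (0.89) without WT replicate 3; the causes were not tested. Genes at a few counts per library are limited by depth, and their folds depend on the prior count.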

Other observations

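The 6 nearest tested neighbours of 12 genes with large changes were looked at after the changes had been seen, with gene order taken from RefSeq. Of all genes tested 5.1% were called in either direction, and the counts of called neighbours were not tested against that share. The 6 nearest tested neighbours of ACTB, among them FSCN1 (0.25) and FBXL18 (0.02), were not called, and their log2 fold changes lay between -0.17 and 0.25. CREB1 had the uncalled KLF7 (0.46) and METTL21A (-0.06) on either side, and FASTKD2, the next tested gene beyond KLF7, was the 1 of its 6 nearest neighbours that fell. Of the 6 nearest neighbours of UBQLN1 2 fell, GKAP1 by -1.11 and FRMD3 by -2.99, both under 5 CPM in wild type, while HNRNPK was at -0.11. None of the 6 neighbours of THY1, CDH13, STAT6 or PSMB8 was called, though HSBP1 beside CDH13 was at 0.88 (edgeR adjusted p = 3.63e-19), below the fold threshold. Of the neighbours of HPGD 2 fell, GPM6A (-1.17) and HAND2 (-1.22). AGAP1 had GBX2 (2.05, under 2 CPM in both groups) as its 1 called neighbour and A2M had CLEC2D (-1.60, likewise). The called neighbours of WBP5 were TCEAL8 and TCEAL5, both lower. NLRC5 had 2 that rose, among them SLC12A3 (2.78), from 1.67 to 11.6 CPM.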
